A study of Homo sapiens with 4 samples.

Results

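The regions described here are wide EZH2 peaks of H3.1-K27M cells that overlap little with the EZH2 peaks of H3.1-WT cells. They were chosen by their measured peak calls: autosomal peaks of the H3.1-K27M list at least 3000 bases wide, with under 25% of their bases inside merged peaks of the H3.1-WT list. There were 864 such regions among the 66093 peaks of both lists. They are called WT-poor regions below, a name that refers to this rule alone. HEK293 is a long-established cell line from human embryonic kidney. Both genotypes had been infected with a lentivirus, selected with G418 and induced with doxycycline at 1 µg/ml, one to express H3.1-WT and the other H3.1-K27M. The labels do not say whether either line was a clone or a pool. The assay was CUT&RUN, where a tethered nuclease releases the DNA around the antibody's target inside permeabilised cells, with 200000 cells per reaction, and 1 EZH2 library and 1 HRP library (secondary antibody alone) were made per genotype. The titles of the H3.1-K27M libraries read H31, and the mutation comes from their genotype label, which no value in the peak lists can check. With 1 EZH2 library per genotype, genotype and library cannot be told apart, differences rest on single libraries and none was tested.

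EZH2 is the methyltransferase subunit of PRC2, the Polycomb complex that places methyl groups on lysine 27 of histone H3 and keeps developmental genes silent. PRC2 nucleates at CpG islands and can spread from them, since its EED subunit binds the trimethylated mark that EZH2 deposits. The K27M histone, known from childhood diffuse midline gliomas, carries methionine in place of that lysine and lowers the trimethyl mark over much of the genome, while some Polycomb targets keep it. In a list of broad peaks, a wide peak is a stretch in which the caller linked enriched pieces into 1 interval. The smallest gap between peaks was 1021 bases in the H3.1-K27M list and 1045 in the H3.1-WT list.

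WT-poor regions made up 864 of the 1985 autosomal H3.1-K27M peaks of at least 3000 bases, which is 43.5%. The same rule with the lists exchanged gave 408 of 1708 wide H3.1-WT peaks, 23.9%, called K27M-poor regions here. The ratio of the 2 numbers was 2.12. The remaining 1121 wide H3.1-K27M peaks, with at least 25% of their bases covered in H3.1-WT, are called WT-covered. The lists were alike in autosomal length: 28323 H3.1-K27M peaks covered 34.6 Mb and 29018 H3.1-WT peaks 33.1 Mb. The lists hold no read counts, so depth is unknown. Intervals on shares below are 95% Wilson intervals, which cover counting error only; neighbouring peaks are not independent.

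The WT-poor regions covered 3.95 Mb in all. Their median width was 3915 bases, with quartiles at 3364 and 5096.5 bases and a maximum of 22732 bases. Of the 864, 408 were at least 4000 bases wide, 227 at least 5000 and 20 at least 10000. K27M-poor regions were shorter, with a median of 3575 bases, and 49 of 408 were at least 5000 bases wide. Wide peaks with little coverage in the other list made up a larger share of the H3.1-K27M list than of the H3.1-WT list in each width class from 1000 bases up, and the quotient of the shares was larger in wider classes. Between 3000 and 4000 bases, 51.7% of H3.1-K27M peaks (interval 48.4% to 55.0%) and 35.2% of H3.1-WT peaks (32.0% to 38.6%) were under 25% covered, a quotient of 1.47. Between 6000 and 10000 bases the shares were 33.1% (28.3% to 38.4%) and 7.30% (4.77% to 11.0%), a quotient of 4.54. Below 1000 bases the order was the other one: 77.5% of H3.1-K27M and 84.3% of H3.1-WT peaks under 500 bases were under 25% covered. Strength differed as well. The median −log10 q of H3.1-WT peaks was 3.42 from 3000 to 4000 bases and 11.96 from 6000 to 10000. For H3.1-K27M peaks of these widths it was 2.01 and 3.01. The quotients use the same calls as the rule and were not adjusted for strength. They are a description, and an effect of width alone was not tested.

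**Figure D1:**
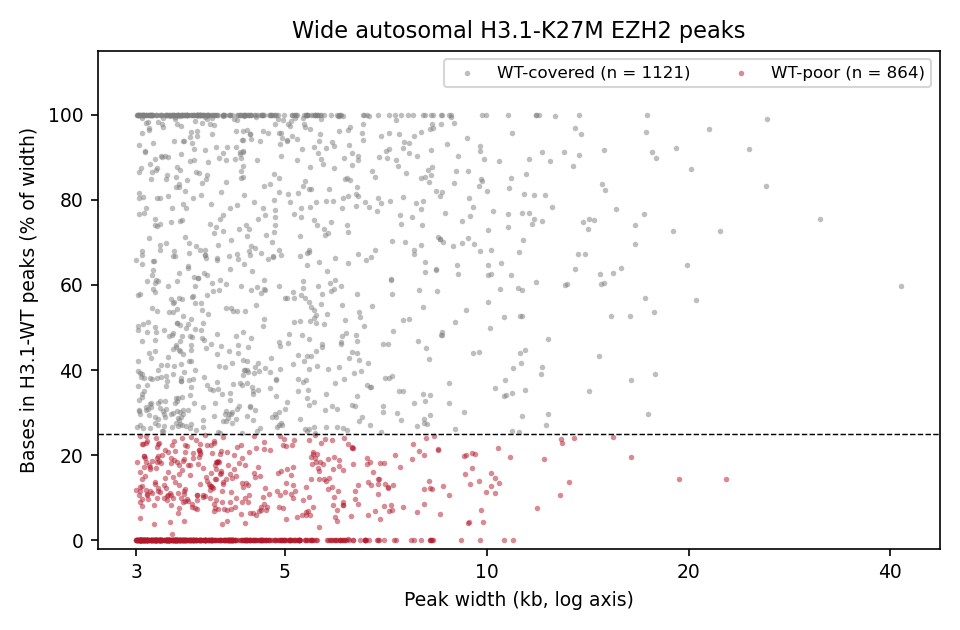
Each point is 1 autosomal H3.1-K27M peak of at least 3000 bases, with its width on a log axis and the percentage of its bases inside H3.1-WT peaks; the dashed line marks 25%. The 864 WT-poor regions lie below the line, 487 of them at 0, and the widest peaks lie above it.

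Covered shares formed no separate cluster at the threshold. Of the wide H3.1-K27M peaks, 487 had no base in H3.1-WT peaks, 95 had some but under 10%, 282 had 10% to 25%, 330 had 25% to 50%, 259 had 50% to 75% and 532 had at least 75%. Just inside the limit lay peaks in 6q12 (chr6:69958661-69964200, 24.86% covered), again in 6q12 (chr6:67387994-67391795, 24.83%) and in 21q21.1 (chr21:22743224-22748145, 24.6%). Just outside lay peaks in 18p11.21 (chr18:14182546-14186863, 25.27%), 10q26.3 (chr10:133255252-133259253, 25.29%) and 12q21.2 (chr12:77901208-77906747, 25.31%). At the width limit, regions in 6q16.3 and 6p12.3 measured exactly 3000 bases and 1 in 18q22.1 measured 3001, while poorly covered peaks in 15q11.2, 7q22.2 and 7q21.13 measured 2998, 2997 and 2995 bases and were left out.

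All WT-poor regions were weak calls, with a −log10 q under 5. Fold enrichment, the authors' linear ratio of EZH2 signal over the caller's background, ran from 2.99 to 5.02 with a median of 3.54. The median was 4.15 in WT-covered peaks, which reached 14.4, and 3.97 in K27M-poor regions, which reached 8.76. In −log10 q, the caller's adjusted confidence, the medians were 1.88, 3.15 and 2.86 in the same order. No WT-poor region had a −log10 q of 5 or more (0 of 864, interval 0% to 0.443%), against 339 WT-covered peaks (30.2%) and 72 K27M-poor regions (17.6%). The highest value among WT-poor regions was 4.43.

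The excess of WT-poor over K27M-poor regions lay in calls with a −log10 q under 3, and was largest under 2. With a −log10 q under 2 there were 524 WT-poor and 85 K27M-poor regions, a ratio of 6.16. They were 72.9% of 719 wide H3.1-K27M peaks and 48.9% of 174 wide H3.1-WT peaks of that strength, so the lists also differed in how many weak wide peaks they held. At 2 or more there were 340 and 323, a ratio of 1.05, at 2.5 or more 105 and 251, and at 3 or more 27 and 189, a ratio of 0.143. In these counts at or above a limit, the direction turned between 2 and 2.5. Within classes it turned at 3, with 313 WT-poor and 134 K27M-poor regions from 2 to 3, and 22 and 79 from 3 to 4. The share of wide H3.1-K27M peaks that were WT-poor fell with strength, from 75.3% of 158 peaks with a −log10 q of 1 to 1.5, through 48.2% of 650 peaks from 2 to 3, to 4.81% of 104 peaks from 4 to 5. The K27M-poor share of wide H3.1-WT peaks in these classes was 51.4% of 35, 43.6% of 307 and 29.0% of 131. These values come from the same calls as the rule and are a description. A q value depends on the depth of both libraries, which is unknown.

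**Figure D2:**
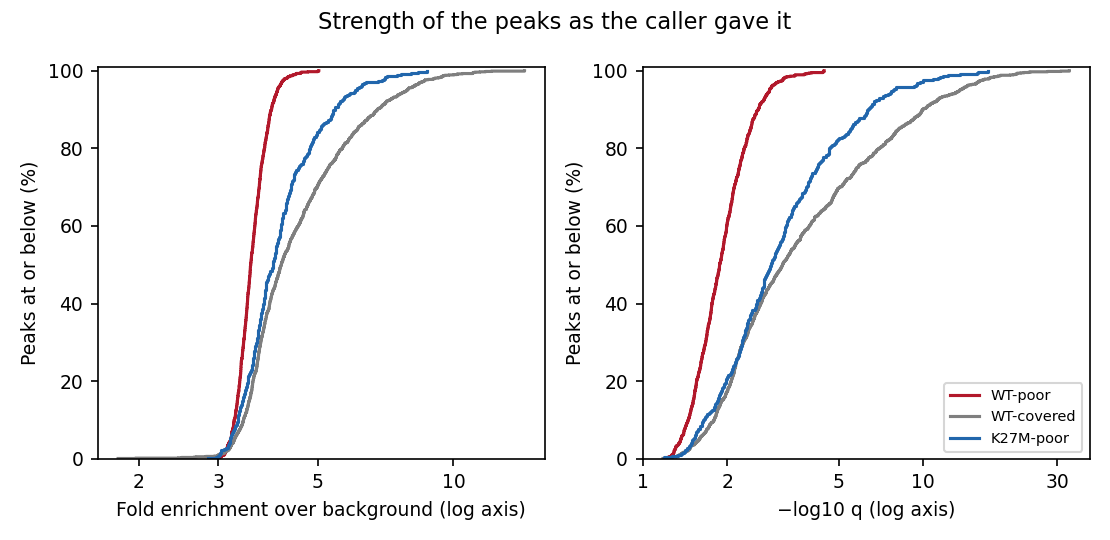
Cumulative share of peaks (vertical axis) at or below each fold enrichment (left) or −log10 q (right), both on log axes, for 864 WT-poor, 1121 WT-covered and 408 K27M-poor regions. The WT-poor curve is complete first, at a fold of 5.02 and a −log10 q of 4.43.

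Wider WT-poor regions were only slightly stronger. Median fold enrichment was 3.49 in the 456 regions of 3000 to 4000 bases, 3.56 in the 279 of 4000 to 6000 and 3.69 in the 129 of 6000 or more. In WT-covered peaks the medians over the same classes were 3.83, 4.08 and 5.102. In K27M-poor regions they were 3.87, 4.11 and 4.08, the last from 21 regions. Width thus came with little gain in enrichment in WT-poor and in K27M-poor regions, and with more in WT-covered peaks.

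Some WT-poor regions met H3.1-WT peaks, whose width inside a region the limit of 25% restricts, so the values that follow are a description. In 487 regions (56.4%, interval 53.0% to 59.6%) H3.1-WT had no called base. These were 24.5% of all wide H3.1-K27M peaks. The share was not far from that in K27M-poor regions, where 200 of 408 (49.0%, interval 44.2% to 53.9%) had no H3.1-K27M base. Of the other 377 WT-poor regions, 322 met a single H3.1-WT peak, 47 met a pair and 8 met 3 or more. Altogether 445 H3.1-WT peaks met a WT-poor region, and 345 of them lay wholly inside one. Their median width was 638 bases and their median −log10 q 1.59, against 778 bases and 1.82 among all autosomal H3.1-WT peaks. Of the 445, 336 (75.5%) had a −log10 q under 2, against 57.6% of autosomal H3.1-WT peaks, and 3 reached 5, the highest at 12.7. In bases, H3.1-WT peaks covered 7.26% of the WT-poor regions, a value the rule holds under 25%, and 69.6% of WT-covered peaks. They covered 1.15% of all autosomal bases, so WT-poor regions were not depleted of H3.1-WT peaks relative to the autosomes.

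The rule set no limit on the bases around a region. The flanks of one WT-poor region can still hold others, so their coverage draws in part on values the rule used and is a description. Within 50 kb on either side, H3.1-K27M peaks covered 12.8% of bases, against 1.20% of all autosomal bases, and H3.1-WT peaks covered 4.42%, against 1.15%. Both lists were thus several times denser around the WT-poor regions than over the autosomes. Around K27M-poor regions the values were 1.45% for H3.1-K27M and 1.99% for H3.1-WT. Around WT-covered peaks they were 9.31% and 5.34%. In the flank bases outside any other region of the same group, H3.1-K27M and H3.1-WT coverage was 10.2% and 4.29% around WT-poor regions, 6.74% and 3.72% around WT-covered peaks, and 1.44% and 1.86% around K27M-poor regions.

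The ratio of H3.1-K27M to H3.1-WT coverage in these flanks was 2.89 around WT-poor regions, 1.74 around WT-covered peaks and 0.731 around K27M-poor regions. It was 1.04 over the autosomes. Outside other regions of the same group the ratios were 2.38, 1.81 and 0.778. Without chromosomes 5 and 6 they were 2.92, 1.54 and 0.601 in the same order. They were 3.08, 2.45 and 1.77 in the darkest Giemsa bands and 2.82, 1.398 and 0.521 in light bands, so that the ratio around K27M-poor regions was above 1 in the darkest bands and under 1 in light ones. Over the bands themselves the ratio was 1.76 in the darkest and 0.761 in light bands. Among peaks with a −log10 q of 1.5 to 3, the flanks of 718 WT-poor regions had 12.6% H3.1-K27M coverage and a ratio of 2.87. Those of 493 WT-covered peaks had 11.8% and 2.03, and those of 201 K27M-poor regions 1.43% and 0.713. Strength was not equal within this class: 405 of the 718, 156 of the 493 and 67 of the 201 had a −log10 q under 2. Flanks of neighbouring regions overlap, so these points are not independent.

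**Figure D3:**
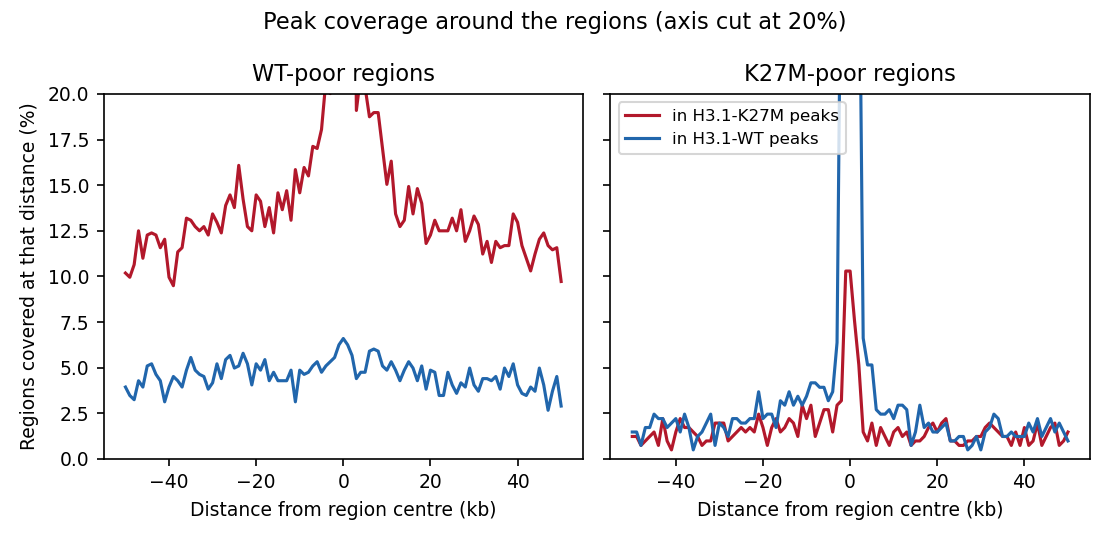
Percentage of regions (vertical axis, cut at 20%) that lie in an H3.1-K27M or an H3.1-WT peak at each distance in kb from the region's centre, for 864 WT-poor regions (left) and 408 K27M-poor regions (right). H3.1-K27M coverage around WT-poor regions is still 10.2% at 50 kb before the centre and 9.72% at 50 kb after it, while both lists are between 0.980% and 1.47% there around K27M-poor regions.

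Single regions showed the same closeness. The next H3.1-K27M peak lay at a median of 2479.5 bases from a WT-poor region and 2929 bases from a WT-covered peak. The next H3.1-WT peak lay at a median of 21502 bases from a K27M-poor region. The next peak of the same list was within 5000 bases for 71.9% of WT-poor, 61.5% of WT-covered and 25.98% of K27M-poor regions. An H3.1-WT peak met or lay within 10 kb of 616 WT-poor regions (71.3%, interval 68.2% to 74.2%), which left 248 with none in that distance. An H3.1-K27M peak did so for 250 of 408 K27M-poor regions (61.3%, interval 56.5% to 65.9%). Of the 616, 377 overlapped an H3.1-WT peak, and of the 250, 208 overlapped an H3.1-K27M peak. The rule used that overlap, so these counts are a description. Of the 487 regions with no H3.1-WT base, 158 had an H3.1-WT peak within 5000 bases and 239 within 10 kb. The median distance was 10.6 kb, and 21 had none within 100 kb. Of the corresponding 200 K27M-poor regions, 42 had an H3.1-K27M peak within 10 kb. Their median distance was 52.4 kb, and 77 had none within 100 kb.

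The widest WT-poor region lay in 6q12 (chr6:65306236-65328967). It spanned 22732 bases with a fold enrichment of 4.16 and a −log10 q of 3.16. H3.1-WT had 7 peaks inside it, which covered 3266 bases (14.4%) and reached a −log10 q of 4.72, so that the stretch was called as 1 interval in H3.1-K27M and as several short ones in H3.1-WT. The next in width lay in 6q22.31 (chr6:123337607-123356940; 19334 bases, fold enrichment 3.59), with 3 H3.1-WT peaks over 2781 bases. A region in 5p14.3 (chr5:21893107-21909528) spanned 16422 bases at a fold enrichment of 3.74, with 4 H3.1-WT peaks over 3199 bases. Band 5p14.3 holds genes of the cadherins CDH12 and CDH18, cell adhesion proteins of the nervous system. As throughout, genes are named from general knowledge of the bands, and no peak was assigned to a gene, because no hg19 annotation was used here.

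The next regions in width lay in light bands. In 12q24.33 (chr12:130465419-130480830) the region spanned 15412 bases at a fold enrichment of 4.27, with 3757 bases (24.4%) covered in H3.1-WT, close to the limit of the rule. In 6q13 (chr6:70089414-70102909) it spanned 13496 bases at 4.04, with 3245 bases (24.04%) covered. A neighbour in the same band, chr6:70006045-70018997, spanned 12953 bases and was among the 5 strongest regions, with a fold enrichment of 4.59 and a −log10 q of 4.003. A single H3.1-WT peak covered 2966 of its bases with a −log10 q of 3.30.

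The 5 regions of highest fold enrichment were also the 5 of highest −log10 q, and apart from the one in 6q13 they spanned 3000 to 4022 bases. The highest fold enrichment, 5.02, was in 4p16.3 (chr4:1046772-1050003; 3232 bases), where an H3.1-WT peak with a −log10 q of 1.38 covered 728 bases. In 7q36.3 (chr7:157516811-157519886; 3076 bases) the fold enrichment was 4.996, H3.1-WT had no called base and its nearest peak lay 15.4 kb away. In 6p21.2 (chr6:39115978-39119999; 4022 bases) it was 4.75, with 845 bases covered in H3.1-WT and the highest −log10 q of all, 4.43. In 6q16.3 (chr6:104751417-104754416) it was 4.58 over exactly 3000 bases, none of them in an H3.1-WT peak, but an H3.1-WT peak lay 0.169 kb away.

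Among regions with no H3.1-WT base, the widest lay in 18q22.2 (chr18:66860328-66871267), with 10940 bases, a fold enrichment of 3.62 and 70.4 kb to the nearest H3.1-WT peak. The next lay in 9p21.3 (chr9:23187763-23198376; 10614 bases, fold enrichment 3.61, nearest H3.1-WT peak 9.25 kb away) and in 9q33.1 (chr9:120562221-120571990; 9770 bases, 3.69, 2.71 kb). Another in 2p12 (chr2:80828312-80836639) spanned 8328 bases, with an H3.1-WT peak 5.92 kb away. Band 2p12 holds CTNNA2, a catenin gene of neurons. These 4 had a −log10 q between 1.91 and 2.44, against a median of 1.88 over all WT-poor regions. The 487 regions with no H3.1-WT base were shorter than the other 377, with a median of 3656 against 4321 bases. The difference in fold enrichment was small, with medians of 3.50 and 3.62. The 3 farthest from any H3.1-WT peak, chosen after their values were seen, lay in 3q24 (chr3:146620745-146624879, 446 kb away), 13q21.33 (422 kb) and 1q31.3 (346 kb).

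Chromosome 6 held 203 WT-poor regions and chromosome 5 held 123. Together these were 37.7% of all WT-poor regions, on chromosomes that make up 12.2% of autosomal length and hold 25.5% of autosomal H3.1-K27M peaks, 24.7% of WT-covered peaks and 22.8% of K27M-poor regions. On chromosome 6, 56.4% of 360 wide H3.1-K27M peaks were WT-poor (interval 51.2% to 61.4%), the highest share, and on chromosome 19 it was 12.5% of 40 (5.46% to 26.1%), the lowest. Chromosome 6 had 11.9 WT-poor regions per 10 Mb, chromosome 5 had 6.799, chromosome 11 had 5.26, and chromosomes 13 and 14 had 0.347 and 0.373. WT-poor regions outnumbered K27M-poor ones on 15 autosomes, equalled them on chromosome 4 with 11 each, and were fewer on 6. The ratio ran from 0.400 on chromosome 13 (4 and 10) to 4.44 on chromosome 11 (71 and 16). Without chromosomes 5 and 6, a choice made after seeing the data, 538 and 315 regions remained, a ratio of 1.71.

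**Figure D4:**
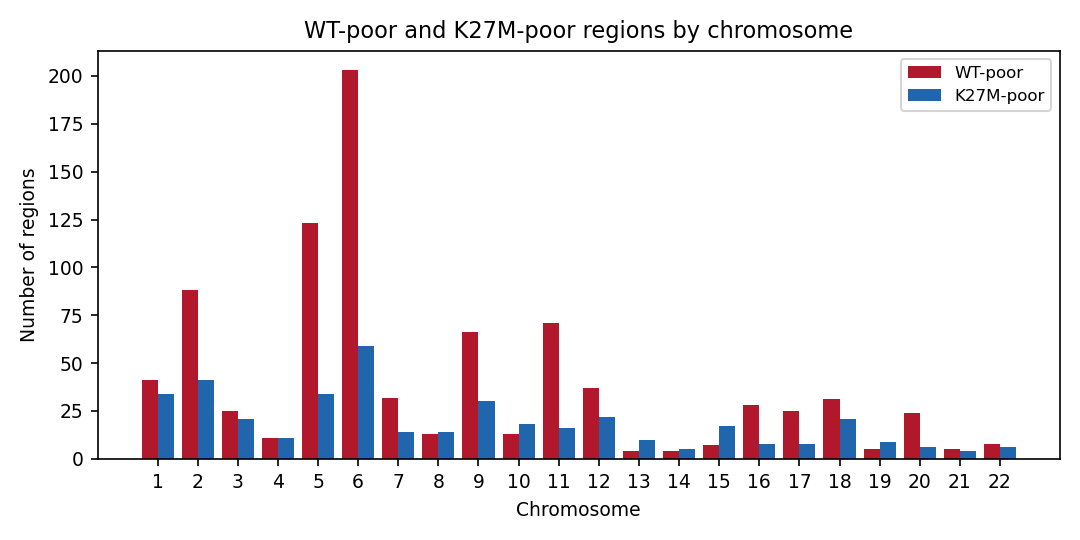
Number of WT-poor regions (red) and K27M-poor regions (blue) on each autosome. Chromosome 6 has 203 against 59 and chromosome 5 has 123 against 34, while chromosome 15 has 7 against 17.

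Joined where WT-poor regions lay within 100 kb of each other, 463 of 864 (53.6%) had at least 1 neighbour, and 261 lay in 64 series of 3 or more. Of WT-covered peaks, 34.8% had such a neighbour, and of K27M-poor regions 5.64% (23 of 408, in lists of unequal length). At 10 kb the shares were 15.3%, 13.6% and 2.21%. The series of WT-poor regions with the most members lay in 6p12.3 (chr6:49868881-50263997), with 11 WT-poor regions over 395 kb. These ranged from 3061 to 13264 bases in width and from 3.32 to 4.204 in fold enrichment, and 4 of them had no H3.1-WT base. H3.1-K27M peaks of any width covered 37.0% of this stretch and H3.1-WT peaks 9.80%. The largest series of WT-covered peaks had more members, 13, in 9p24.1. A closer series in 1q31.2 (chr1:192325257-192348222) had 3 regions of 8064, 3071 and 4602 bases over 22.97 kb, with 0.687 kb of H3.1-WT peaks.

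In fixed windows of 1 Mb, 382 of 2897 held a WT-poor region (13.2%), and 43 windows with at least 5 held 299 of them (34.6%). Of these 43 windows, 20 lay on chromosome 6 and 6 on chromosome 5. The most WT-poor bases, 73694 in 13 regions, lay in 6p12.3 (chr6:50000001-51000000), a band that holds TFAP2B, a transcription factor of kidney and neural crest. The window in 6q12 (chr6:65000001-66000000) had 72354 bases in 12 regions, in a band that holds EYS, a photoreceptor gene. The window in 9p23 (chr9:9000001-10000000) had 64099 bases in 13 regions, in a band that holds part of PTPRD, a receptor phosphatase gene of synapses. Windows in 6q13 that began at 72000001 and 70000001 had 58512 bases in 10 regions and 58285 bases in 6.

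These windows were not empty in H3.1-WT. In the 6p12.3 window H3.1-WT had 61 peaks over 81092 bases and H3.1-K27M 112 peaks over 247114 bases. In 6q12 H3.1-WT had 66 peaks and H3.1-K27M 125, and in 9p23 they had 71 and 127. Over the 5 windows the ratio of covered bases ran from 2.07 to 3.40. There was 1 K27M-poor region each in the windows of 6p12.3, 6q12 and 6q13 from 72000001, and 0 in the other 2. That is 0.6 per window, beside 408 K27M-poor regions over all 2897 windows, so the 5 windows were not short of them. The same windows held 41 WT-covered peaks beside 54 WT-poor regions, and in 9p23 the WT-covered peaks, 14, outnumbered the 13 WT-poor regions.

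By band, ranked after their values were seen, the 10 leading bands held 225 WT-poor regions (26.04%) on 2.10% of autosomal length, along with 130 WT-covered peaks (11.6%) and 14 K27M-poor regions (3.43%). Of these bands, 6 lay on chromosome 6. Band 6q12 had 33, 6q16.3 had 29, 5q34 had 28, 6q13 had 27 and 6p12.3 had 26. In 6q16.3, which holds the kainate receptor gene GRIK2, 29 of 39 wide H3.1-K27M peaks were WT-poor (74.4%). In 5q34, which holds a cluster of GABA receptor genes, it was 28 of 39 (71.8%), with no K27M-poor region. In 6q12 it was 33 of 60 (55.0%). Among the 10 leading bands the share ran from 51.7% in 5p14.3 to 74.4% in 6q16.3. Outside these 10, in 11p15.4, which holds the beta-globin cluster and many olfactory receptor genes, it was 11 of 12 (91.7%), beside 3 K27M-poor regions. That band was picked after its share was seen, and the share rests on 12 peaks. In other bands outside the 10 the share was 77.8% of 18 in 9q21.13, 36.4% of 22 in 5p15.1 and 35.0% of 20 in 20q13.33. Over all wide H3.1-K27M peaks the share was 43.5%.

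WT-poor regions lay more often in dark Giemsa bands than either group they were set beside. Dark bands are AT-rich, gene-poor and mostly late replicating, light bands GC-rich and gene-rich. The darkest bands, 16.0% of autosomal length, held 340 WT-poor regions (39.4%, interval 36.1% to 42.6%), 25.2% of WT-covered peaks (22.7% to 27.8%) and 13.2% of K27M-poor regions (10.3% to 16.9%). Light bands, 42.4% of autosomal length, held 24.5%, 39.1% and 51.2%. All autosomal H3.1-K27M peaks lay in the darkest bands in 29.02% of cases and all H3.1-WT peaks in 18.9%. In the darkest bands there were 6.30 WT-poor regions for each K27M-poor one, and in light bands 1.01 (212 and 209).

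The size of this difference varied between strength classes, in no steady order, and between chromosomes. The share of WT-poor regions in the darkest bands was itself 39.7% at a −log10 q of at least 2, against 39.4% over all. Among peaks with a −log10 q of 1 to 1.5, the share in the darkest bands was 41.2% of 119 WT-poor, 30.8% of 39 WT-covered and 27.8% of 18 K27M-poor regions. From 1.5 to 2 it was 38.5% of 405, 35.9% of 156 and 16.4% of 67. From 2 to 3 it was 40.9% of 313, 30.3% of 337 and 9.70% of 134. From 3 to 4 it was 27.3% of 22, 28.5% of 151 and 20.3% of 79. In these 4 classes the share in WT-poor regions was thus above that in K27M-poor regions, and above that in WT-covered peaks except from 3 to 4, by gaps that varied from class to class. Without chromosomes 5 and 6 the shares were 31.6% in WT-poor, 19.7% in WT-covered and 12.4% in K27M-poor regions. Of the 14 autosomes with at least 10 WT-poor regions and a wide H3.1-K27M peak in a darkest band, the share was higher in WT-poor than in WT-covered peaks on 13, and chromosome 9 was the exception with 22.7% against 26.4%. The gaps on the 13 ran from 18.9% against 18.1% on chromosome 12 to 42.9% against 13.6% on chromosome 16. With fewer than 10 WT-poor regions, chromosome 13 had 50% against 62.5%, while on chromosomes 14 and 21 the share was higher in WT-poor regions.

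**Figure D5:**
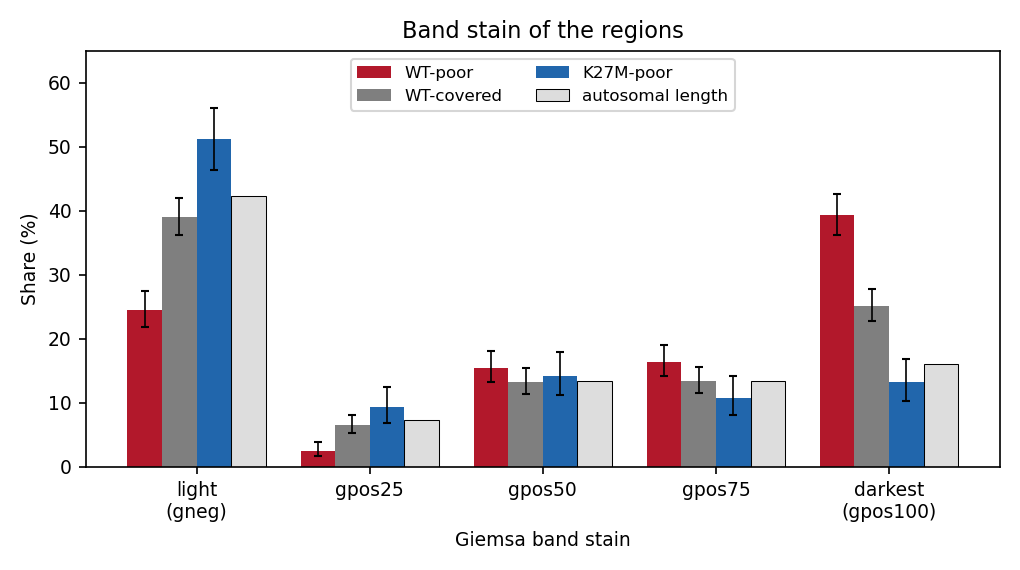
Share of WT-poor, WT-covered and K27M-poor regions in bands of each Giemsa stain, from light to darkest, beside the share of autosomal length; error bars are 95% Wilson intervals for counting error. WT-poor regions have 39.4% in the darkest bands and 24.5% in light bands.

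The share of WT-poor regions near chromosome ends was lower than in both other groups, and near centromeres it lay between them. Within 2 Mb of an end, 3.05% of autosomal length, there were 7 of 864 (0.810%), against 46 WT-covered peaks (4.10%) and 16 K27M-poor regions (3.92%). In or within 2 Mb of a centromere band, 6.46% of autosomal length, there were 35 (4.05%), 79 (7.05%) and 10 (2.45%). On chromosome X, which the rule leaves out, 300 of 447 wide H3.1-K27M peaks (67.1%) and 12 of 103 wide H3.1-WT peaks (11.7%) met the same limits. The X regions had a median width of 3990 bases and a median −log10 q of 1.88, close to those of the autosomal WT-poor regions.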

How the data were processed

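The authors deposited broad peaks called per sample: the peak names of each list pair the EZH2 library of a genotype with its HRP control. The submitters' processing notes list Bowtie2 2.3.5.1, MACS2, Picard, deepTools and cutadapt with the build hg19, without roles or parameters. The deposited values used here are the authors' fold enrichment, which is a linear ratio to the caller's background, and their −log10 p and −log10 q. Library scaling and read depth are not given in the sources used here.

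Widths are the deposited end minus the deposited 0-based start, and printed positions are 1-based hg19. In total 0 peaks ended past an hg19 chromosome end. Covered bases were counted on merged peaks and equalled those of bedtools 2.31.1 in every wide peak. On simulated data 2530 of 2530 planted regions were recovered. Giemsa bands came from circlize 0.4.16, by peak midpoint. Python 3.11.15 was used with pandas 2.3.3, numpy 2.4.6, matplotlib 3.10.9 and scipy 1.17.1.

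The regions, lists and comparisons were chosen with earlier results of these data known. Named regions are the 5 widest, the 5 of highest fold enrichment, the 5 of highest −log10 q, the 5 widest with no H3.1-WT base, the 3 on either side of each limit and the 5 windows of 1 Mb with the most bases. From these, 1 region is not reported here. Alternatives changed the covered share, the width, the strength, the joining of peaks and the chromosomes. No hg19 genome or annotation was used here, so sequences, base composition and the gene lists were not analysed.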

Additional observations from a re-analysis of the deposited data

How the results depend on the processing

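The number of WT-poor regions, 864, moved by over 1.5 times to 2043 with a width of at least 2000 bases, 227 at 5000 bases, 340 with a −log10 q of at least 2 and 538 without chromosomes 5 and 6 (chosen after seeing the data). It ran from 582 to 1194 under the others. The share of wide H3.1-K27M peaks that were WT-poor, 43.5%, left its counting interval in most cases. It was 29.3% and 60.2% with covered shares under 10% and 50%, 50.96% and 32.2% with widths of 2000 and 5000 bases, 26.9% with wide peaks and 57.7% with covering peaks of a −log10 q of at least 2, 38.5% with covering peaks within 5000 bases joined, 47.9% with X and 38.9% without chromosomes 5 and 6. The ratio of WT-poor to K27M-poor regions, 2.12, was 4.63 at a width of 5000 bases and 1.05 with wide peaks of a −log10 q of at least 2, and stayed between 1.497 and 2.77 under the others. The share of WT-poor regions in the darkest bands, 39.4%, was 35.2% with X and 31.6% without chromosomes 5 and 6, and from 38.1% to 42.3% otherwise. Each change follows from which peaks a setting admits, and the cause beyond that was not tested. Joining covering peaks within 1000 bases changed nothing, since no gaps are that short. No paired analysis was possible because there is 1 EZH2 library per genotype. Depth is unknown, which limits what the weak calls can show.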
